A study of Danio rerio with 6 samples.

Results

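Isolated cells with constitutively active β-catenin, sorted from ‘Mosaic’ embryos, were compared with cells from ‘Ubiquitous’ embryos, in which all cells carry it. The comparison used 4 of the 6 RNA-Seq libraries of the series and the 3905 of 32266 genes whose regularized log (rlog) value, averaged over all 6 libraries, was at least 2. An rlog value is a count on the log2 scale, adjusted for sequencing depth and shrunk to the mean of the gene where it rests on few counts. The gene just inside this limit, *STOX1*, had a mean rlog of 2.0002, and the gene just outside it, *zgc:158463*, had 1.9991.

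All embryos were zebrafish of the AB strain. For ‘Mosaic’, fertilized eggs received a plasmid in which the heat shock promoter hsp70l drives GFP and β-catCA, a mouse β-catenin without its N-terminal end, so that scattered cells express both. For ‘Ubiquitous’, embryos of a stable transgenic line with the same hsp70l-driven GFP and β-catCA express them throughout. Both were heat shocked at 37 °C for 1 h from 4.3 h post fertilization, and GFP+ cells were sorted from 40 pooled embryos per group, at 8.3 h by the study's methods and at 9 h by the sample labels. ‘Uninjected’ embryos carried neither the plasmid nor the transgene, their cells were sorted under similar conditions, and the sources used here do not state whether they were heat shocked. Each group has 2 libraries, named lots, and nothing says that these came from separate crosses. The p-values therefore do not measure the spread between crosses. They rest on a variance for each gene that is drawn toward a trend over all genes tested. Injection of DNA and isolation of the β-catCA cells both separate ‘Mosaic’ from ‘Ubiquitous’ and cannot be told apart, since the libraries include no injected control lacking β-catCA. The dose of the transgene may differ between these groups as well, since the study states that its copy number is hard to control in mosaic embryos. The level of the transgene itself was not analysed here.

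β-catenin is the transcriptional effector of canonical Wnt signalling: when a Wnt ligand stops its degradation, it enters the nucleus and activates target genes with Tcf/Lef factors. Without its N-terminal end it escapes degradation, so the pathway is on without ligand. In the gastrula, Wnt/β-catenin activity is high at the margin and posteriorly, where it promotes mesoderm and posterior neural fates, and low anteriorly, where forebrain and eye fates form. The study calls cells whose Wnt activity differs sharply from that of their neighbours unfit.

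Counts were recovered from the rlog values by inverting the transformation, which returned the deposited values for all 14132 genes not listed at 0. The totals came to 217242 and 240223 for ‘Mosaic’ and to 345593 and 34540 for ‘Ubiquitous’, against 58352 and 489310 in ‘Uninjected’. The second ‘Ubiquitous’ library stands apart in depth: 14.4% of the genes tested had no count in it, against at most 0.102% in the other 3 libraries compared. Below, a normalised count is an inferred count divided by the library's size factor. Values are given for both libraries of a group in lot order, and gene symbols are those of the annotation table, in which capitals can stand for either of a pair of zebrafish paralogs.

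Limma's test called 52 genes between ‘Mosaic’ and ‘Ubiquitous’ at an adjusted p-value under 0.1, or 1.33% of those tested. Of these, 20 were higher in ‘Mosaic’ (0.512%) and 32 were lower (0.819%). The genes that rose were led by *LNX1*, *foxo3b*, *sesn3* and *CCNG1*, and those that fell by *tbxta*, *drll.2*, *mixl1* and *foxa*. Absolute differences among the 52 ran from 0.78 to 1.69 on the rlog scale. The rlog values of the groups did not overlap for any of the 52, which was also so for 46.7% of all genes tested (28.1% higher and 18.5% lower in ‘Mosaic’). The share of all genes with both ‘Mosaic’ libraries beyond all other libraries was not counted. Over all genes the median difference was 0.05, with 2215 above 0 and 1690 below. Without the shallow second ‘Ubiquitous’ library 10 genes passed, 8 of them among the 52, and without the first or the second ‘Mosaic’ library 2 genes passed, *LNX1* and *foxo3b*. Without the filter none of 14132 genes passed limma's test, while 950 reached an unadjusted p of 0.05. A negative binomial test, run on these counts, called 14 genes, 11 of them among the 52: *LNX1*, *foxo3b*, *krt8*, *tbxta*, *tbx16*, *mixl1*, *drll.2*, *FZD8*, *cited4b*, *si:ch73-52f24.4* and ENSDARG00000010124. The rest of the 52 did not pass it. Every one of the 52 kept its direction in each alternative in which it was tested. As their groups did not overlap, leaving out a library could not reverse it. Filters, variance priors and the threshold leave the difference as it is. For those alternatives the result was thus fixed in advance, and the share of all genes that kept their direction was not counted. Besides genes marked so below, the study picked out *aplnrb*, *hsp70.3*, *SEPHS1*, *krt8*, *FABP3*, *ptgdsb.1*, *pkdccb* and *MACROH2A2* (its *h2afy2*) from these libraries. Their calls here are therefore not independent evidence of direction. The study also named *dkc1* as lower in unfit cells, and *dkc1* is not among the 52. The study compared each β-catCA group with ‘Uninjected’, using DESeq2, and looked for changes found in ‘Mosaic’ only. The 52 come from a direct comparison of ‘Mosaic’ with ‘Ubiquitous’, so the absence of *dkc1* does not test the study's result. Below, a range in parentheses after the median of a gene list gives its lowest and highest value when the libraries were dropped one at a time.

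**Figure D1:**
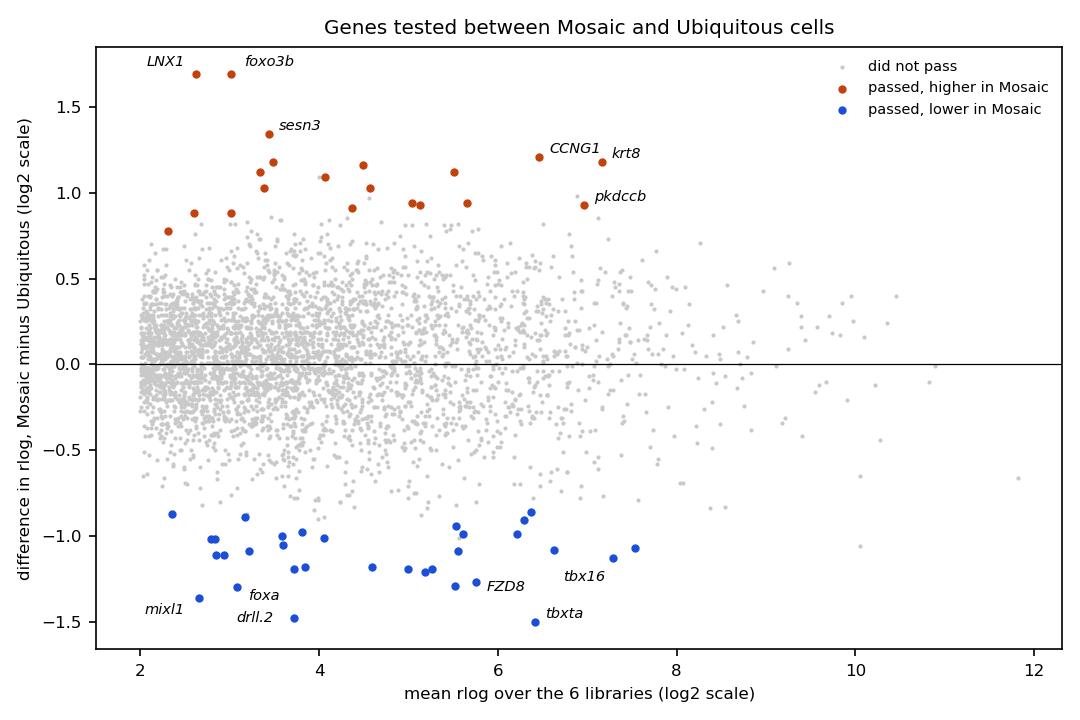
Each point is 1 of the 3905 genes tested, with its mean rlog over the 6 libraries on the horizontal axis and the difference in rlog, ‘Mosaic’ minus ‘Ubiquitous’, on the vertical axis (both on the log2 scale). Orange points are the 20 genes that passed and were higher in ‘Mosaic’, blue points the 32 that passed and were lower, and grey points did not pass. *LNX1* and *foxo3b* lie highest, both at 1.69, and *tbxta* lies lowest at -1.5.

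Several genes of the mesendoderm, the tissue of the margin that gives rise to mesoderm and endoderm, were lower in ‘Mosaic’ than in ‘Ubiquitous’. None was called higher. Here and below, rose and fell refer to this comparison. Against ‘Uninjected’, *tbxta* was lower in ‘Mosaic’ and passed. The differences of *tbx16* (-0.52), *mixl1* (-0.57), *foxa* (-0.25) and *aplnrb* (-0.81) from ‘Uninjected’ did not pass (limma, adjusted p = 0.408, 0.385, 0.757 and 0.24). For *foxa*, ‘Ubiquitous’ was above ‘Uninjected’ (1.05, limma, adjusted p = 0.0871). Of the 24 genes tested on the list of paraxial and ventrolateral mesoderm, 4 fell, none rose, and the median difference was -0.51 (-0.51 to -0.39), against 0.05 over all genes. On the notochord and organizer list 2 of 8 fell and none rose, with a median of -0.30 (-0.56 without the second ‘Mosaic’ library to -0.21). Endoderm genes numbered 6, of which 1 fell and none rose, also with a median of -0.30 (-0.50 without the second ‘Mosaic’ library to -0.26). Of the 15 genes of hatching gland and prechordal plate, 1 fell and none rose, with a median of -0.18 (-0.47 without the second ‘Mosaic’ library to -0.18). That gene was *dkk1b*, which is also on the Wnt target list and is described below. It was higher in ‘Mosaic’ than in ‘Uninjected’ (difference 1.13, adjusted p = 0.0242). Taking the members of these lists together, each counted once, 37 of 44 genes had a negative difference and 6 passed. Over all genes tested, 1690 of 3905 had a negative difference and 0.819% were called lower. The median difference of the 44 genes from ‘Uninjected’ was -0.30 in ‘Mosaic’ and 0.13 in ‘Ubiquitous’. Markers that did not pass included *msgn1* (-0.61), *noto* (-0.38), *frzb* (-0.35), *tbx6* (-0.16), *GSC* (-0.14) and *klf17* (0.33), with adjusted p from 0.358 to 0.833. For *tbx6* and *GSC*, values in ‘Mosaic’ and ‘Ubiquitous’ overlapped. Summed over the paraxial and ventrolateral list, normalised counts were 633 and 574 in ‘Mosaic’, against 1033 and 1161 in ‘Ubiquitous’ and 1069 and 708 in ‘Uninjected’. Both ‘Mosaic’ libraries were thus below all 4 of the others. In sorted pools, fewer cells of a germ layer and less RNA per cell cannot be told apart.

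The T-box gene *tbxta* (ENSDARG00000101576), which is needed for notochord and posterior mesoderm, had normalised counts of 33.7 and 37.1 in ‘Mosaic’, against 136 and 139 in ‘Ubiquitous’ and 202 and 74.6 in ‘Uninjected’. Its mean normalised count was 3.88-fold higher in ‘Ubiquitous’ than in ‘Mosaic’, with no overlap between the groups. On the rlog scale it was 5.45 ± 0.07 (SD, n = 2) in ‘Mosaic’ and 6.95 ± 0.02 (SD, n = 2) in ‘Ubiquitous’, a difference of -1.5 (standard error 0.29, adjusted p = 0.025). It was also lower than in ‘Uninjected’ (difference -1.38, adjusted p = 0.0205), a comparison that uses the same ‘Mosaic’ libraries and in which 1.38% of genes passed. For *tbx16* (ENSDARG00000007329), a T-box gene of paraxial mesoderm, normalised counts were 99.7 and 95.1 in ‘Mosaic’, against 247 and 264 in ‘Ubiquitous’ and 183 and 128 in ‘Uninjected’. Here ‘Uninjected’ lay between the groups, and the difference between ‘Mosaic’ and ‘Ubiquitous’ was -1.13 (standard error 0.23, adjusted p = 0.034). Both genes passed the negative binomial test as well (adjusted p = 0.00292 for *tbxta* and 0.0466 for *tbx16*).

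The homeobox gene *mixl1* (ENSDARG00000069252), a Nodal-induced regulator of mesendoderm, rested on few molecules in ‘Mosaic’, with inferred counts of 1 and 3, against 21 and 8 in ‘Ubiquitous’. Its normalised counts were 0.733 and 2.02 in ‘Mosaic’ and 9.40 and 37 in ‘Ubiquitous’, with 5.70 and 5.39 in ‘Uninjected’. The difference in rlog was -1.36 (standard error 0.25, adjusted p = 0.025), and it ranged from -1.79 to -0.94 when libraries were dropped one at a time. The forkhead gene *foxa* (ENSDARG00000087094) had the same order of groups, with normalised counts of 3.66 and 3.37 in ‘Mosaic’, against 14.8 and 41.6 in ‘Ubiquitous’ and 5.70 and 5.09 in ‘Uninjected’. It differed by -1.30 (standard error 0.24, adjusted p = 0.025). The value in the shallow ‘Ubiquitous’ library was the higher of that pair for both genes, from 8 and 9 counts. In the negative binomial test *mixl1* passed and *foxa* did not (adjusted p = 0.069 and 0.146).

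The apelin receptor gene *aplnrb* (ENSDARG00000036670), whose receptor guides mesendoderm cells during gastrulation, had normalised counts of 11.7 and 10.8 in ‘Mosaic’, against 35.8 and 50.9 in ‘Ubiquitous’ and 45.6 and 18 in ‘Uninjected’ (difference from ‘Ubiquitous’ -1.18, standard error 0.26, adjusted p = 0.0445), and it did not pass the negative binomial test (adjusted p = 0.198). Outside the lists, the draculin-like gene *drll.2* (ENSDARG00000035150) had 5.86 and 4.72 in ‘Mosaic’ and 18.8 and 64.8 in ‘Ubiquitous’ (difference -1.48, standard error 0.29, adjusted p = 0.025), and without the second ‘Ubiquitous’ library the difference was -0.98. Its relative *drl*, a zinc finger gene of lateral plate mesoderm, had 11 and 9.44 against 20.6 and 46.3, a difference of -0.89 that did not pass (adjusted p = 0.139). Again the shallow ‘Ubiquitous’ library had the higher value of its pair for each of these genes. The zinc finger gene *OSR1* (ENSDARG00000014091), a gene of lateral and intermediate mesoderm, had 20.5 and 15.5 in ‘Mosaic’, against 52.4 and 74.0 in ‘Ubiquitous’ and 54.2 and 35.0 in ‘Uninjected’ (difference from ‘Ubiquitous’ -1.21, standard error 0.24, adjusted p = 0.025). Further developmental regulators that fell were the basic helix-loop-helix gene *twist2* (-1.02), the forkhead gene *foxd5* (-0.94), the secreted BMP antagonist gene *NOG* (-1.11) and *pnhd*, which encodes a secreted protein (-1.11), with adjusted p-values of 0.0494, 0.0678, 0.0419 and 0.025. The forkhead gene *foxa3*, which is on the prechordal, notochord and endoderm lists, had a difference of -0.79 that did not pass (adjusted p = 0.199), with 5.13 and 6.74 in ‘Mosaic’, against 17.0 and 18.5 in ‘Ubiquitous’ and 51.3 and 18.3 in ‘Uninjected’.

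**Figure D2:**
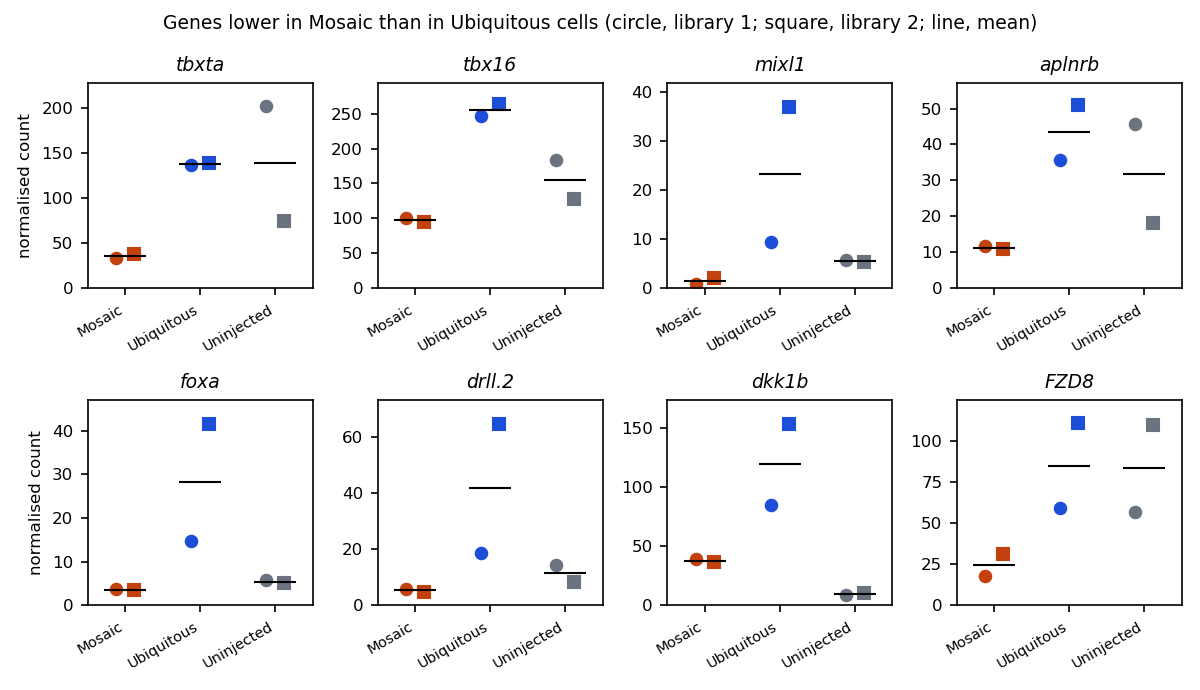
Normalised counts (vertical axis, from 0) of 8 genes that fell in ‘Mosaic’ relative to ‘Ubiquitous’ cells, by group, with a circle for library 1, a square for library 2 and a line at the mean of the 2. Both ‘Mosaic’ libraries lie below both ‘Ubiquitous’ libraries for each gene, and for *mixl1*, *foxa* and *drll.2* the shallow second ‘Ubiquitous’ library, at 37, 41.6 and 64.8, lies well above the first.

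The endoderm determinant *sox32* had few counts, with normalised counts of 2.93 and 2.02 in ‘Mosaic’ and 5.82 and 9.25 in ‘Ubiquitous’ (difference -0.42, adjusted p = 0.336). Below the filter, *SOX17* was counted 1 and 4 times in ‘Mosaic’, 12 and 1 times in ‘Ubiquitous’, and 5 and 9 times in ‘Uninjected’. For *sox32* and *SOX17*, a difference was not detectable at this depth, and the endoderm gene that fell was *mixl1*, which is also on the mesoderm list.

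Posterior neural genes stood on the other side, with 2 of 13 tested higher in ‘Mosaic’, none lower, and a median difference of 0.27 (0.20 to 0.44 without the first ‘Mosaic’ library). Of the 13, 12 had a positive difference, as did 2215 of all 3905 genes tested, of which 0.512% were called higher. The gene *hoxb1b* (ENSDARG00000054033), a Hox gene of the hindbrain region, had normalised counts of 56.4 and 51.9 in ‘Mosaic’, against 20.1 and 9.25 in ‘Ubiquitous’ and 2.85 and 15.3 in ‘Uninjected’. Both ‘Mosaic’ libraries were above the other 4, and the difference from ‘Ubiquitous’ was 1.16 (standard error 0.24, adjusted p = 0.034). *HOXB9* (ENSDARG00000056023), a Hox gene of the trunk, had 13.2 and 16.2 in ‘Mosaic’, against 3.58 and 0 in ‘Ubiquitous’ and 2.85 and 2.70 in ‘Uninjected’ (difference from ‘Ubiquitous’ 0.88, standard error 0.20, adjusted p = 0.0494). The differences of *hoxb1b* and *HOXB9* from ‘Uninjected’ were 1.5 and 0.90, and both passed (adjusted p = 0.00205 and 0.0317). In the negative binomial test between ‘Mosaic’ and ‘Ubiquitous’ neither passed (adjusted p = 0.384 and 0.938). Also on this list were *OLIG3*, with a difference of 0.70, and *CYP26A1*, the enzyme that clears retinoic acid, with 0.69, and neither passed (adjusted p = 0.14 and 0.194). For *meis2b*, a Hox cofactor gene, normalised counts were 178 and 138 in ‘Mosaic’ and 178 and 41.6 in ‘Ubiquitous’. The first libraries of these groups were at the same level, and the difference of 0.59 did not pass (adjusted p = 0.498). The posterior marker *cdx4* had 77 and 78.9 in ‘Mosaic’ and 84.2 and 64.8 in ‘Ubiquitous’, a difference of 0.05 (limma, adjusted p = 0.944). *GBX1* (0.25) and *ZNF703* (-0.39, the negative difference of the list) did not pass either (limma, adjusted p = 0.691 and 0.49). For *cdx4* and *GBX1*, values in ‘Mosaic’ and ‘Ubiquitous’ overlapped.

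None of 17 anterior neural and eye field genes passed, and the median difference was 0.02 (0.01 to 0.14 without the first ‘Ubiquitous’ library), which turned to -0.02 with the libraries centred on their medians. Against ‘Uninjected’ the medians were -0.42 in ‘Mosaic’ and -0.78 in ‘Ubiquitous’. Among the anterior genes, *six7*, a homeobox gene of the eye field, was counted 6 and 9 times in ‘Mosaic’, 0 times in both ‘Ubiquitous’ libraries, and 15 and 192 times in ‘Uninjected’. Its difference between ‘Mosaic’ and ‘Ubiquitous’, 0.50, did not pass limma's test (adjusted p = 0.482) and did pass the negative binomial test (adjusted p = 0.0838). The zinc finger genes *ZIC1* (0.66) and 1 of the paralogs listed as *ZIC2* (0.81) had the largest positive differences of the list and did not pass (adjusted p = 0.32 and 0.17). Of the 17, 11 had a positive and 6 a negative difference. The largest negative one, of *irx7*, was -0.58 and did not pass (limma, adjusted p = 0.367).

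Of 7 enveloping layer genes tested, which mark the flat covering epithelium of the embryo, 1 rose and none fell, and the median was 0.50 (0.23 without the first ‘Mosaic’ library to 0.75 without the second). The gene that rose was the keratin gene *krt8* (ENSDARG00000058358), with normalised counts of 252 and 184 in ‘Mosaic’, against 90 and 60.1 in ‘Ubiquitous’ and 128 and 222 in ‘Uninjected’ (difference from ‘Ubiquitous’ 1.18, standard error 0.26, adjusted p = 0.0416). Its values in ‘Mosaic’ overlapped those in ‘Uninjected’. Keratins form a multigene family, and whether reads were shared between copies was not tested. The keratin genes *krt99* (0.76), *krt5* (0.59) and *krt4* (0.50) had positive differences and *krt18a.1* a negative one (-0.34), and none of these passed (adjusted p from 0.125 to 0.578). Summed over the list, normalised counts were 523 and 379 in ‘Mosaic’, against 287 and 199 in ‘Ubiquitous’ and 322 and 576 in ‘Uninjected’. Non-neural ectoderm genes numbered 11, with none called and a median of 0.25, which turned to -0.08 without the second ‘Ubiquitous’ library. For the SoxB1, pou5f3 and nanog list, which covers early neural and pluripotency factors, none of 8 passed and the median was 0.12 (-0.05 without the second ‘Mosaic’ library to 0.33 without the first ‘Ubiquitous’ library), with *sox19a* at 0.69 (adjusted p = 0.385) and *pou5f3* at -0.63 (adjusted p = 0.319). Germ plasm genes (5 tested, none called) and the 1 yolk syncytial layer gene tested, *apoeb*, had medians of -0.03 and 0.06, both of which lay at 0.24 without the first ‘Ubiquitous’ library and below 0 without the second (-0.25 and -0.12). Summed normalised counts of the yolk syncytial list were 347 and 397 in ‘Mosaic’ and 402 and 301 in ‘Ubiquitous’, and those ranges overlap. The part of the enveloping layer genes in the other differences was not tested.

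**Figure D3:**
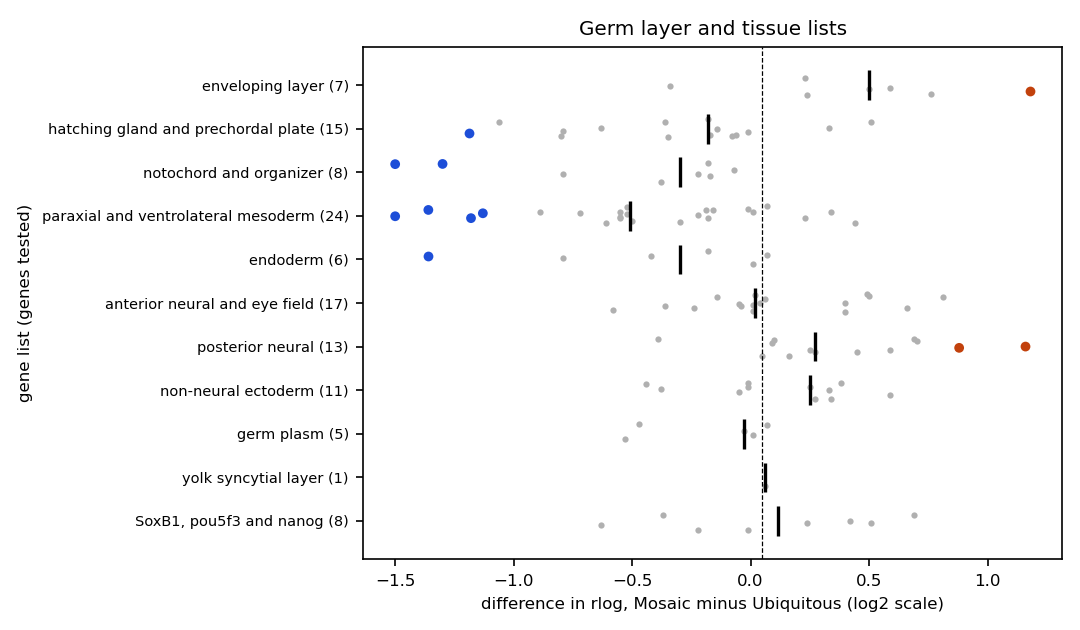
Differences in rlog, ‘Mosaic’ minus ‘Ubiquitous’ (horizontal axis, log2 scale), of the genes tested on each germ layer or tissue list, 1 list per row with the number of genes tested in parentheses. Small grey points did not pass, large blue points passed and were lower and large orange points passed and were higher in ‘Mosaic’, the thick bar is the list's median, and the dashed line is the median of all genes (0.05). The mesoderm, notochord and endoderm medians lie between -0.51 and -0.30, and the enveloping layer median lies at 0.50, with a range of 0.23 to 0.75 when libraries were dropped one at a time.

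Both groups carry active β-catenin, and the Wnt target list was split: 2 of 12 genes fell in ‘Mosaic’ relative to ‘Ubiquitous’, none rose, with a median of -0.19 (-0.39 without the second ‘Ubiquitous’ library to 0.05 without the first). The Dickkopf gene *dkk1b* (ENSDARG00000045219), a secreted Wnt antagonist induced by β-catenin, had normalised counts of 38.8 and 36.4 in ‘Mosaic’, against 84.6 and 153 in ‘Ubiquitous’ and 8.56 and 10.2 in ‘Uninjected’. All 3 groups were separate, with ‘Mosaic’ in the middle. ‘Mosaic’ was below ‘Ubiquitous’ by -1.19 in rlog (standard error 0.24, adjusted p = 0.034), and *dkk1b* exceeded ‘Uninjected’ in both ‘Mosaic’ (1.13, adjusted p = 0.0242) and ‘Ubiquitous’ (2.33, adjusted p = 3.85e-05), the comparison of ‘Ubiquitous’ with ‘Uninjected’ being one in which 0.487% of genes passed, 0.154% higher and 0.333% lower in ‘Ubiquitous’. *NKD1*, an intracellular feedback inhibitor, had 38.8 and 41.1 in ‘Mosaic’, against 66.3 and 106 in ‘Ubiquitous’ and 22.8 and 15.0 in ‘Uninjected’, and its difference between the β-catCA groups did not pass (-0.77, adjusted p = 0.175). The difference of *dkk1b* from ‘Ubiquitous’ did not pass the negative binomial test (adjusted p = 0.117). The other gene of this list that fell was *tbxta*. *WLS*, which carries Wnt ligands to the cell surface, and *CCND1*, cyclin D1, differed by 0.54 and -0.36 and did not pass (adjusted p = 0.341 and 0.529).

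Of 27 receptors, ligands and other components of the pathway, 1 fell and none rose, with a median of 0.15 (0.07 without the shallow library to 0.22). The receptor gene *FZD8* (ENSDARG00000038569) had normalised counts of 17.6 and 31.0 in ‘Mosaic’, against 59.1 and 111 in ‘Ubiquitous’ and 57.0 and 110 in ‘Uninjected’. ‘Mosaic’ was below both other groups, whose values overlapped, with differences of -1.27 from ‘Ubiquitous’ (standard error 0.29, adjusted p = 0.0445) and -1.29 from ‘Uninjected’ (adjusted p = 0.0311). The receptor gene *FZD3* (0.64), and for *FZD7* (0.63) and the corepressor gene *TLE3* (0.58) the paralog with the larger difference, had positive differences that did not pass (adjusted p = 0.222, 0.312 and 0.26).

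Of 18 genes tested on the growth arrest list, 4 rose in ‘Mosaic’ and none fell, with a median of 0.29 (0.24 to 0.33). Over all genes tested, 0.512% were called higher. The list was drawn up as p53 targets and genes of growth arrest, and it holds *foxo3b*. Activity of p53 was not tested. Of the 4 genes that rose, *foxo3b*, *sesn3* and *CCNG1* were picked out by the study from these libraries, so the count is not independent evidence of direction. Of the 18, 10 had a positive and 8 a negative difference, so the list as a whole did not move one way.

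Its largest rise was that of the FoxO transcription factor gene *foxo3b* (ENSDARG00000042904), with normalised counts of 34.5 and 28.3 in ‘Mosaic’, against 2.69 and 0 in ‘Ubiquitous’ and 0 and 2.40 in ‘Uninjected’. Both ‘Mosaic’ libraries stood over all others, and the ‘Ubiquitous’ values rest on 6 and 0 inferred counts. The difference in rlog was 1.69 (standard error 0.22, adjusted p = 0.00123). For *sesn3* (ENSDARG00000015822), a sestrin that restrains mTORC1 and is a known FoxO target in mammals, the normalised counts were 39.6 and 22.9 in ‘Mosaic’, against 3.13 and 9.25 in ‘Ubiquitous’ and 2.85 and 5.39 in ‘Uninjected’ (difference from ‘Ubiquitous’ 1.34, standard error 0.27, adjusted p = 0.0286). *CCNG1* (ENSDARG00000076667), cyclin G1, had 157 and 172 in ‘Mosaic’, against 79.2 and 32.4 in ‘Ubiquitous’ and 77.0 and 64.1 in ‘Uninjected’ (difference from ‘Ubiquitous’ 1.21, standard error 0.25, adjusted p = 0.0348). *PHLDA3* (ENSDARG00000037804), which inhibits Akt in mammals, had 11 and 12.8 in ‘Mosaic’, against 2.69 and 0 in ‘Ubiquitous’ and 0 and 3.30 in ‘Uninjected’ (difference from ‘Ubiquitous’ 0.78, standard error 0.19, adjusted p = 0.0586). In each of the 4 genes the ‘Mosaic’ pair was the highest of the 3 groups and did not overlap the others. Against ‘Ubiquitous’ alone, rlog values higher in ‘Mosaic’ without overlap were found for 28.1% of all genes tested. Against ‘Uninjected’, each passed too (adjusted p = 0.000287 for *foxo3b*, 0.01 for *sesn3*, 0.0845 for *CCNG1* and 0.0453 for *PHLDA3*). In the negative binomial test between ‘Mosaic’ and ‘Ubiquitous’, *foxo3b* passed (adjusted p = 0.0384) and *sesn3*, *CCNG1* and *PHLDA3* did not (adjusted p = 0.126, 0.121 and 0.999).

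Among members with a negative difference, *DDIT4*, a stress-induced inhibitor of mTORC1, had a difference of -0.80 that did not pass (adjusted p = 0.139). Among 11 genes of the apoptosis machinery none passed and the median was 0.23 (0.10 without the first ‘Ubiquitous’ library to 0.25). The cytochrome c gene *cycsb* had the largest positive difference there (0.78, adjusted p = 0.14), and *PDCD4* the largest negative one (-0.78, adjusted p = 0.215). Summed normalised counts of the apoptosis list were 246 and 268 in ‘Mosaic’, against 209 and 120 in ‘Ubiquitous’ and 145 and 191 in ‘Uninjected’. Interferon-induced genes had few counts: of the 30 in the table, 16 were listed at 0 and 2 reached the filter. Neither passed, and their median difference was -0.02 (-0.14 to 0.09). Summed normalised counts of that list were 24.9 and 25 in ‘Mosaic’, against 13.4 and 18.5 in ‘Ubiquitous’ and 11.4 and 14.7 in ‘Uninjected’.

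**Figure D4:**
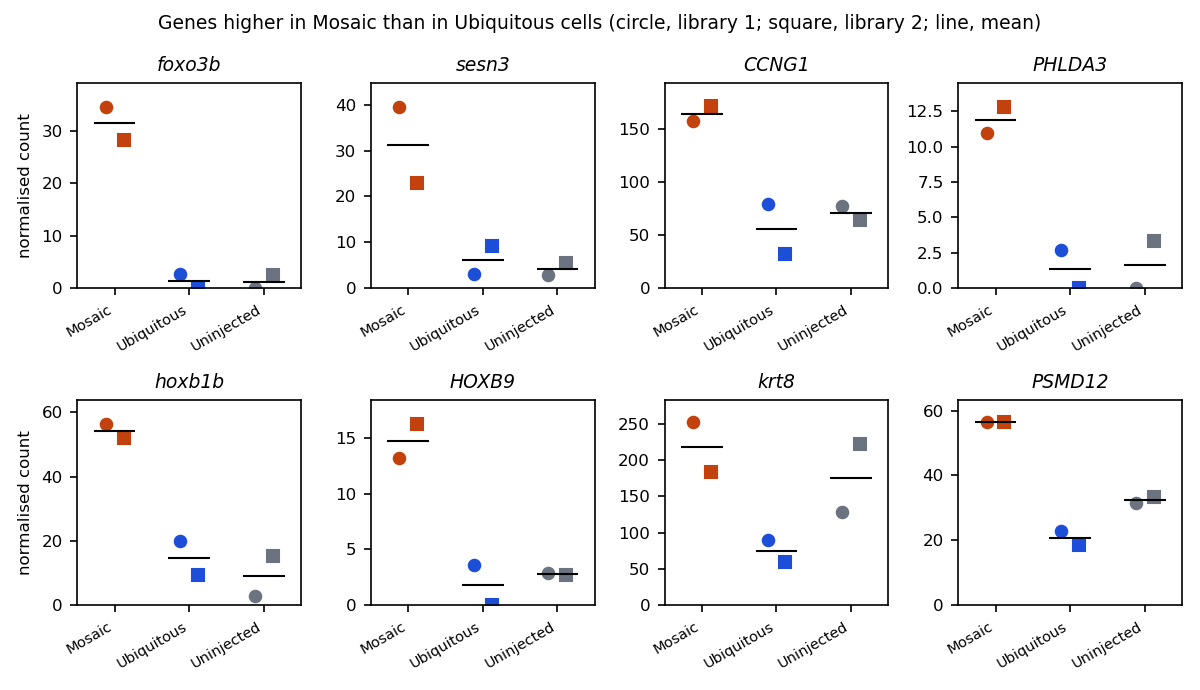
Normalised counts (vertical axis, from 0) of 8 genes that were higher in ‘Mosaic’ than in ‘Ubiquitous’ cells, by group, with a circle for library 1, a square for library 2 and a line at the mean of the 2. Both ‘Mosaic’ libraries lie above both ‘Ubiquitous’ libraries for each gene, and for *krt8* the ‘Uninjected’ libraries, at 128 and 222, overlap those of ‘Mosaic’.

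Of 12 genes on the Nodal and Smad2/3 list, 1 rose and 1 fell, and both were picked out by the study from these libraries. The one that rose was the E3 ubiquitin ligase gene *LNX1* (ENSDARG00000043323), known in mammals for degrading Numb. It was counted 32 and 35 times in ‘Mosaic’ and 0 times in both ‘Ubiquitous’ libraries, with 0 and 11 counts in ‘Uninjected’. With the libraries of each group pooled and 3 counts taken as the limit that a count of 0 allows, it made up an at least 18.6-fold higher share of the ‘Mosaic’ counts than it did in ‘Ubiquitous’, a bound that covers counting error only. The corepressor gene *skilb* (ENSDARG00000022904), which in mammals restrains Smad2/3, went the other way, with normalised counts of 4.40 and 5.40 in ‘Mosaic’, against 23.7 and 18.5 in ‘Ubiquitous’ and 17.1 and 13.5 in ‘Uninjected’ (difference from ‘Ubiquitous’ -1.0, standard error 0.23, adjusted p = 0.0496). Its difference from ‘Uninjected’, -0.74, did not pass (limma, adjusted p = 0.209). Between ‘Mosaic’ and ‘Ubiquitous’ it did not pass the negative binomial test (adjusted p = 0.384). The other 10 genes of the Nodal and Smad2/3 list did not pass, and their differences included -0.37 for the ligand gene *gdf3* (adjusted p = 0.403) and -0.35 for the receptor gene *ACVR1B* (adjusted p = 0.525). The median of that list was -0.11 (-0.16 to -0.07 without either ‘Ubiquitous’ library).

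None of 16 BMP and dorsoventral patterning genes passed, with differences from -0.43 to 0.42 and a median of -0.19 (-0.29 without the second ‘Mosaic’ library to 0.00 without the first). The BMP antagonist gene *NOG*, described above, was not matched to that list, and it fell (-1.11, limma, adjusted p = 0.0419). Of 10 FGF signalling genes, 1 fell and none rose, with a median of -0.13 (-0.30 without the second ‘Ubiquitous’ library to -0.03 without the first). It was *IL17RD* (ENSDARG00000098359), a membrane antagonist of FGF signalling, with normalised counts of 55.7 and 49.9 in ‘Mosaic’, against 100 and 167 in ‘Ubiquitous’ and 51.3 and 67.7 in ‘Uninjected’ (difference from ‘Ubiquitous’ -0.99, standard error 0.24, adjusted p = 0.0654). ‘Mosaic’ and ‘Uninjected’ overlapped for this gene. The receptor gene *fgfr4* had 308 and 225 in ‘Mosaic’ and 169 and 130 in ‘Ubiquitous’, which did not pass (difference 0.66, adjusted p = 0.237). Of the 15 Notch and retinoic acid genes none passed, and the median was -0.18 (-0.18 to -0.07 without the first ‘Mosaic’ library).

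Of 51 mitosis genes tested, 1 fell in ‘Mosaic’ and none rose, with a median of -0.13 (-0.21 without the second ‘Ubiquitous’ library to -0.08 without the first) and 35 of the 51 below 0. It was *hmmr* (ENSDARG00000021794), which encodes a spindle-associated protein, with normalised counts of 8.80 and 3.37 in ‘Mosaic’, against 26.4 and 32.4 in ‘Ubiquitous’ and 8.56 and 15.3 in ‘Uninjected’ (difference from ‘Ubiquitous’ -1.19, standard error 0.25, adjusted p = 0.034). ‘Ubiquitous’ held the high values of that gene, while ‘Mosaic’ and ‘Uninjected’ overlapped. *NUSAP1*, *ndc80* and *RACGAP1*, which act in the spindle, at the kinetochore and in cytokinesis, differed by -0.85, -0.82 and -0.80 and did not pass (adjusted p = 0.159, 0.159 and 0.14). Among 42 DNA replication genes none passed and the median was 0.01, which turned to -0.02 without the second ‘Ubiquitous’ library and to -0.03 with the libraries centred on their medians. The replicative helicase genes *MCM3* and *MCM6* had differences of -0.70 and -0.80 that did not pass (adjusted p = 0.205 and 0.18 for the paralog of *MCM6* with the larger difference).

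None of 79 pre-mRNA splicing genes passed, and their median was -0.06 (-0.17 without the second ‘Ubiquitous’ library to 0.00 without the first), although 14 reached an unadjusted p of 0.05, as did 13.0% of all genes tested. The U1 snRNP gene *SNRPC* had normalised counts of 107 and 139 in ‘Mosaic’ and 238 and 241 in ‘Ubiquitous’ (difference -0.79, adjusted p = 0.14). Outside the lists, the lariat debranching enzyme gene *DBR1* fell, with normalised counts of 5.13 and 6.74 in ‘Mosaic’, against 24.2 and 27.8 in ‘Ubiquitous’ and 8.56 and 12.3 in ‘Uninjected’ (difference from ‘Ubiquitous’ -1.05, standard error 0.23, adjusted p = 0.0356). The cyclin L gene *ccnl1b*, whose product takes part in splicing in mammals, also fell (difference -1.02, adjusted p = 0.0943), from inferred counts of 5 and 3 in ‘Mosaic’ and 57 and 2 in ‘Ubiquitous’. It ranged from -1.49 without the second ‘Ubiquitous’ library to -0.55 without the first.

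Of 10 histone genes 1 rose and none fell, with a median of -0.12 (-0.16 to -0.06) and 6 of the 10 below 0. It was *MACROH2A2*, a macroH2A variant, with normalised counts of 49.1 and 58.7 in ‘Mosaic’, against 20.1 and 18.5 in ‘Ubiquitous’ and 37.1 and 25.8 in ‘Uninjected’ (difference from ‘Ubiquitous’ 0.94, standard error 0.23, adjusted p = 0.0654). Outside the lists, the acetyltransferase gene *kat5b* rose (0.91, adjusted p = 0.0796) and the nucleosome remodeller gene *chd4b* fell (-0.86, adjusted p = 0.0943).

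None of 85 cytosolic ribosomal protein genes, 80 ribosome biogenesis genes or 54 translation factor genes passed, with medians of 0.15 (0.08 to 0.21), 0.12 (0.02 to 0.21) and 0.18 (0.11 to 0.19). The lowest values of the ribosomal and biogenesis medians came without the first ‘Mosaic’ library, and that of the translation factors without the first ‘Ubiquitous’ library. The ribosomal protein genes *rps27.1* (0.98, adjusted p = 0.194) and *RPS9* (0.85, adjusted p = 0.159) had the largest differences of their list, and the poly(A)-binding protein gene *pabpc1a* (0.73, adjusted p = 0.194) that of the translation factors. Of 37 proteasome genes 1 rose and none fell, with a median of 0.13 (0.11 to 0.22 without the second ‘Ubiquitous’ library). It was *PSMD12*, a subunit of the regulatory particle, with normalised counts of 56.4 and 56.6 in ‘Mosaic’, against 22.8 and 18.5 in ‘Ubiquitous’ and 31.4 and 33.3 in ‘Uninjected’ (difference from ‘Ubiquitous’ 0.93, standard error 0.22, adjusted p = 0.0526).

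A polyubiquitin gene listed as *UBB* (ENSDARG00000002369) went in the opposite direction, with 66.0 and 70 in ‘Mosaic’, against 133 and 176 in ‘Ubiquitous’ and 39.9 and 50.0 in ‘Uninjected’ (difference from ‘Ubiquitous’ -0.91, standard error 0.22, adjusted p = 0.0731). Its value in ‘Ubiquitous’ also differed from ‘Uninjected’ (1.32, adjusted p = 0.00392), while that in ‘Mosaic’ did not pass (0.42, adjusted p = 0.503). Polyubiquitin genes are near-identical in sequence, so the assignment of these reads is uncertain.

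Of 59 oxidative phosphorylation genes 1 rose and none fell, with a median of 0.06 (0.05 to 0.19 without the first ‘Mosaic’ library). It was *NDUFAB1*, the mitochondrial acyl carrier protein (difference 0.94, adjusted p = 0.0897). The 12 mitochondrially encoded genes tested had a median of 0.12 (-0.01 without the first ‘Mosaic’ library to 0.23 without the second ‘Ubiquitous’ library) and none passed. Of 6 glycolysis genes none passed, with a median of -0.36 (-0.39 to -0.24 without the second ‘Ubiquitous’ library) and *ALDOA*, an aldolase gene, at -0.80 (adjusted p = 0.136).

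Among 42 heat shock and chaperone genes 1 fell and none rose, with a median of -0.03 (-0.07 to 0.01, the latter without the first ‘Mosaic’ or the second ‘Ubiquitous’ library). *hsp70.3*, an inducible Hsp70 gene of a multigene family whose reads cannot be assigned with certainty, had 6.60 and 9.44 in ‘Mosaic’, against 29.5 and 27.8 in ‘Ubiquitous’ and 8.56 and 13.5 in ‘Uninjected’ (difference from ‘Ubiquitous’ -0.98, standard error 0.23, adjusted p = 0.0548). The collagen chaperone gene *SERPINH1* (-0.60 for the paralog with the larger difference, adjusted p = 0.238) and the Hsp70-Hsp90 adaptor gene *STIP1* (-0.58, adjusted p = 0.282) did not pass. ‘Ubiquitous’ thus had the higher *hsp70.3* values after the same heat shock.

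Of 27 antioxidant and selenoprotein genes 1 fell and none rose, with a median of 0.10 (-0.03 without the second ‘Ubiquitous’ library to 0.19 without the first). It was *SEPHS1* (ENSDARG00000058292), a selenophosphate synthetase family gene, with 60.1 and 41.8 in ‘Mosaic’, against 125 and 139 in ‘Ubiquitous’ and 163 and 126 in ‘Uninjected’ (difference from ‘Ubiquitous’ -1.08, standard error 0.23, adjusted p = 0.0377). Its ‘Mosaic’ values were the lowest of the 3 groups. The study picked *SEPHS1* out from these libraries, so the count of 1 is not independent evidence of direction.

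**Figure D5:**
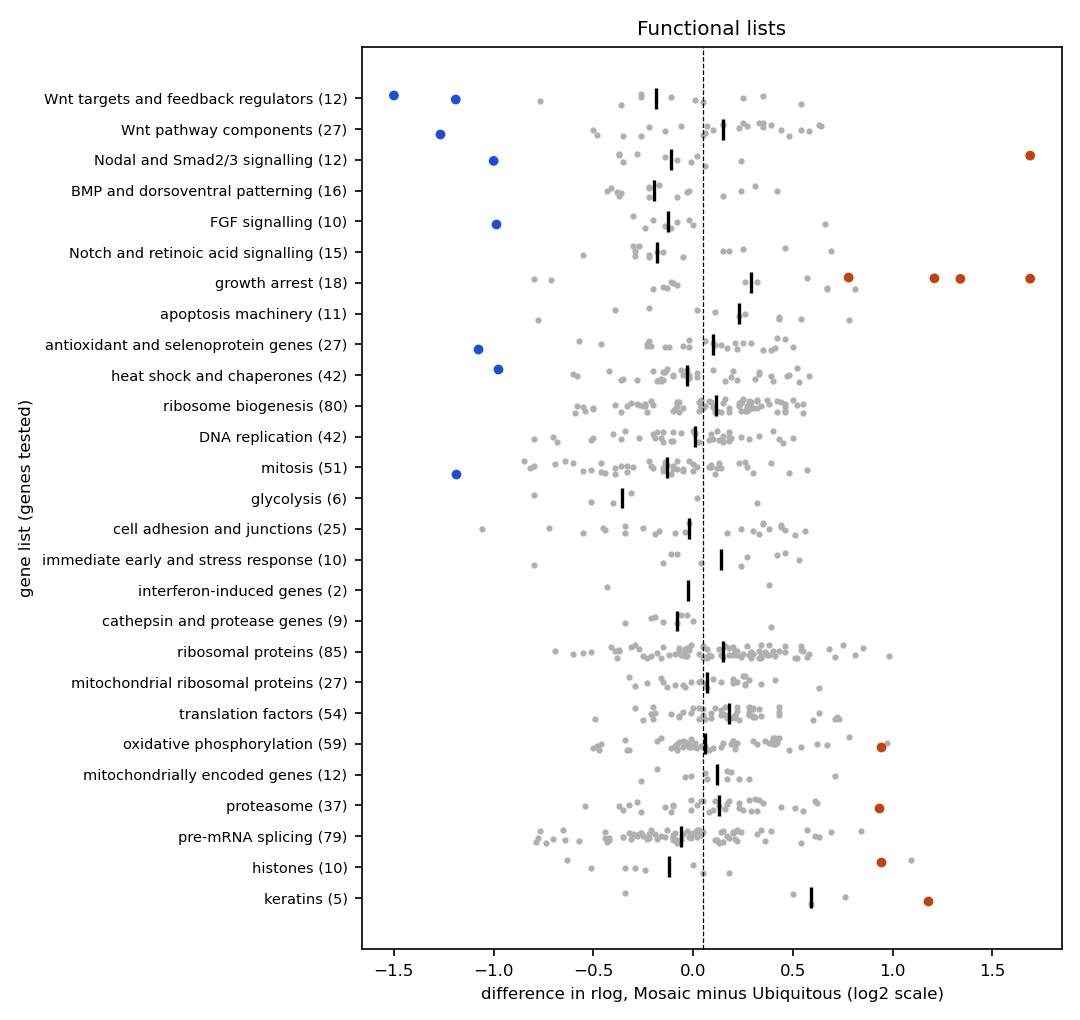
Differences in rlog, ‘Mosaic’ minus ‘Ubiquitous’ (horizontal axis, log2 scale), of the genes tested on each functional list, 1 list per row with the number of genes tested in parentheses. Small grey points did not pass, large blue points passed and were lower and large orange points passed and were higher in ‘Mosaic’, the thick bar is the list's median, and the dashed line is the median of all genes (0.05). The growth arrest list holds 4 orange points at 0.78 to 1.69, and no ribosomal protein, ribosome biogenesis, translation or splicing gene passed.

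None of 25 cell adhesion and junction genes passed, and their median was -0.02 (-0.06 to 0.06 without the first ‘Ubiquitous’ library). The connexin gene *gjc4b* had the largest difference of that list (-1.06, adjusted p = 0.17), with normalised counts of 611 and 739 in ‘Mosaic’, against 1055 and 2396 in ‘Ubiquitous’ and 1563 and 798 in ‘Uninjected’. Its values were highest in the 2 shallowest libraries, and whether depth has a part in this was not tested.

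In all, 29 of the 52 genes were on no list. Those that rose included *ptgdsb.1* (ENSDARG00000027088), a lipocalin-type prostaglandin D synthase gene, with normalised counts of 96.8 and 90.4 in ‘Mosaic’, against 35.4 and 27.8 in ‘Ubiquitous’ and 17.1 and 38.6 in ‘Uninjected’ (difference from ‘Ubiquitous’ 1.12, standard error 0.24, adjusted p = 0.0348). The stress-inducible nuclear protein gene *nupr1a* (ENSDARG00000094300) had 33.7 and 32.4, 12.1 and 0, and 14.3 and 13.2 in the same order (difference from ‘Ubiquitous’ 1.09, standard error 0.23, adjusted p = 0.0348). *TCIM* (ENSDARG00000079497), whose human relative is a small regulator of transcription, had 19.1 and 27.0, 4.92 and 0, and 2.85 and 10.5 (difference from ‘Ubiquitous’ 1.12, standard error 0.24, adjusted p = 0.0348). For all 3 genes both ‘Mosaic’ libraries were the highest of the 6. Both were above both ‘Ubiquitous’ libraries in rlog for 28.1% of all genes tested.

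The remaining rises were those of the uncharacterised *si:ch211-269k10.2* (1.18, adjusted p = 0.025) and ENSDARG00000102572 (0.88, adjusted p = 0.0796), the receptor tyrosine phosphatase gene *PTPRF* (1.03, adjusted p = 0.0419), the fatty acid-binding protein gene *FABP3* (1.03, adjusted p = 0.0494) and the secreted kinase gene *pkdccb* (0.93, adjusted p = 0.0943). Of the 20 genes that rose, 8 had no count in the shallow second ‘Ubiquitous’ library and 13 had at most 2. Without that library the differences of these 8 genes ran from 0.79 to 2.02, against 0.78 to 1.69 with it, and *LNX1*, *foxo3b* and *si:ch211-269k10.2* among them still passed.

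Falls on no list included *DCAF7* (ENSDARG00000054355), a WD40-repeat adaptor gene, with normalised counts of 11.7 and 17.5 in ‘Mosaic’, against 48.4 and 55.5 in ‘Ubiquitous’ and 45.6 and 38.9 in ‘Uninjected’ (difference from ‘Ubiquitous’ -1.19, standard error 0.23, adjusted p = 0.025). The uncharacterised *si:ch73-52f24.4* (ENSDARG00000100697) had 18.3 and 23.6, 75.2 and 74.0, and 74.1 and 49.1 (difference from ‘Ubiquitous’ -1.29, standard error 0.23, adjusted p = 0.025), and it passed the negative binomial test too (adjusted p = 0.0466). In both genes ‘Mosaic’ was the low group and all 4 ‘Ubiquitous’ and ‘Uninjected’ libraries were above it. Against ‘Ubiquitous’ alone, rlog values lower in ‘Mosaic’ without overlap were found for 18.5% of all genes tested.

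The transcriptional coactivator gene *cited4b* (-1.09, adjusted p = 0.0928, with -1.59 without the second ‘Ubiquitous’ library and -0.58 without the first), *HSPA12A* (-1.18, adjusted p = 0.0796) and ENSDARG00000010124, which has no symbol in the annotation used (-1.07, adjusted p = 0.0356), fell as well. Enzymes and transporters that fell were *CYP27C1*, which converts vitamin A1 to A2 (-1.09, adjusted p = 0.0445), the fatty acid elongase *ELOVL6* (-0.89, adjusted p = 0.0731), the retinol dehydrogenase *RDH14* (-0.87, adjusted p = 0.0943), the collagen prolyl hydroxylase *P4HA2* (-0.99, adjusted p = 0.0773) and the phosphate transporter *SLC20A1* (-1.01, adjusted p = 0.0526). *RDH14* rests on inferred counts of 1 and 1 in ‘Mosaic’ and 30 and 1 in ‘Ubiquitous’, and its difference was -1.21 without the second ‘Ubiquitous’ library and -0.54 without the first. Each of the 32 genes that fell had at least 1 count in the second ‘Ubiquitous’ library, and the highest had 68.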

How the data were processed

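CEL-Seq2 libraries of sorted cells were sequenced by the authors, who mapped the reads to GRCz10 with Bowtie2 (version 2.3.1), counted genes with HTSeq (0.6.1) after discarding duplicates by molecular identifier, and deposited DESeq2 regularized log values, which are log2 values, for 3 groups of 2 libraries. The deposited table holds 32266 genes, of which 18134 are listed at 0 throughout. Counts were inferred by inverting the transformation, and all 14132 other genes were returned within 1e-06. Inferred totals spanned a 14.2-fold range, so low counts are least precise in the second ‘Ubiquitous’ library. Intervals and limits cover counting error only.

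The 3905 genes whose rlog averaged 2 or more over the 6 libraries were tested with limma (3.58.1, R 4.3.3; moderated test with a mean trend) on all 6 libraries, with group as the only term and Benjamini-Hochberg adjustment over these genes, and a gene was called at an adjusted p-value under 0.1. The fit has 3 residual degrees of freedom. Limma adds 15 from the trend over all genes, so the variance of a gene rests more on that trend than on its own spread. Shrinkage also narrows the rlog spread of genes with few counts. *PHLDA3*, with inferred counts of 6 and 0 in ‘Ubiquitous’, had an SD of 0.01 there. Comparisons with ‘Uninjected’ share libraries with the main one, and their values are given side by side. Scripts were run in Python 3.11.15 and tested on simulated data. Alternatives were other filters, scalings, variance priors, sets of libraries, a lot block, voom, a negative binomial test and a stricter threshold.

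The deposited table names genes by Ensembl ID, and symbols were looked up in a separate table of gene names, which gave 26433 of the 32266 IDs a symbol. A RefSeq gene table served for synonyms of list entries. There were 38 lists, 11 for germ layers or tissues and 27 for functions, described by their counts and medians. In 3 lists not described above no gene passed. They were immediate early and stress response (10 tested, median 0.14), cathepsin and protease genes (9 tested, median -0.08) and mitochondrial ribosomal proteins (27 tested, median 0.07). The 5 keratin genes tested, of which 1 rose, are named with the enveloping layer and had a median of 0.59. The comparison and the lists were chosen with earlier results of these data known. Named genes were those called, the 5 largest differences of each list and genes named by the study. *SOX17*, *apoeb*, *STOX1*, *zgc:158463*, ENSDARG00000080337, *msgn1*, *frzb*, *tbx6*, *GSC*, *klf17*, *cdx4*, *GBX1* and *ZNF703* were named after their values were seen. The values of 2 list members are not reported here. No sequence is shown.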

Additional observations from a re-analysis of the deposited data

How the results depend on the processing

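The number of genes called between ‘Mosaic’ and ‘Ubiquitous’ (52, with 20 higher and 32 lower) depended on the processing. The 52 kept their direction in every alternative in which they were tested. For dropped libraries, filters, variance priors and the threshold this was fixed in advance, as stated above. With no filter on low values limma called 0 genes (0 higher, 0 lower), with 950 at an unadjusted p-value under 0.05. With the stricter filter, a mean rlog of 4 or more, it called 24 (9 higher, 15 lower), from 28 of the 52 that were still tested. The negative binomial test called 14 (4 higher, 10 lower), with 181 at an unadjusted p-value under 0.05, and an adjusted p-value under 0.05 left 33 (13 higher, 20 lower). When libraries were dropped one at a time, the calls ranged from 2 to 67, those higher from 2 to 34 and those lower from 0 to 37. The lowest counts came without either ‘Mosaic’ library, where the lone sample is assumed to vary like the other groups, and 314 and 360 genes there reached an unadjusted p of 0.05. The other alternatives called 43 to 67 genes. Between ‘Mosaic’ and ‘Uninjected’, 54 genes became 6 with no filter, 18 with the stricter filter, 32 with the negative binomial test and 25 to 64 with a library left out. Between ‘Ubiquitous’ and ‘Uninjected’, 19 became 7, 5 and 14 to 25 with no filter, the stricter filter and a library left out. Apart from the filters, which change the genes tested, the cause of these changes was not tested.

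Correlations of same-lot deviations from the group means were -0.06, -0.12 and -0.04. With 2 libraries per group, of very unequal depth in ‘Ubiquitous’ and ‘Uninjected’, they cannot show whether the lots were paired. With the lot as a replicate block 50 genes were called, 49 of them among the 52.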

Other observations

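The negative binomial test called 3 genes that limma did not. They were *gjc4b* and *six7*, described above, and ENSDARG00000080337, with inferred counts of 4083 and 4073 in ‘Mosaic’, against 4093 and 2752 in ‘Ubiquitous’ and 3214 and 4096 in ‘Uninjected’. The difference of ENSDARG00000080337 between ‘Mosaic’ and ‘Ubiquitous’ was -0.66 (limma, adjusted p = 0.696; negative binomial test, adjusted p = 0.0154), and it ranged from -1.86 to 0.55 with a library left out. No gene had an inferred count above 4096 in any library, and the 4 deepest libraries each held 4073 or more counts of ENSDARG00000080337. Whether molecular identifiers ran out at that level was not tested.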
